A study of Mus musculus with 7 samples.

Results

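The 49 protein-coding genes of the mouse kidney described here belong to 6 families of membrane carriers for sugars, inositol, lactate and related acids. They are all the genes of the deposited table, named by GENCODE release 21 of the GRCm38 annotation, whose symbols begin with Slc2a (12 genes), Slc5a (13), Slc13a (5), Slc16a (14), Slc37a (4) or Slc50a (1), out of 53465 table genes. Kidney tissue was taken from 4 MRL/lpr mice treated with AZD1152 and from 3 MRL/lpr mice given vehicle. AZD1152 (barasertib) is converted in the body to an inhibitor of Aurora kinase B, which acts in cell division. Both groups carry the lpr defect of the Fas gene on the MRL background, a strain that develops a lupus-like disease with nephritis, so a mouse without the disease was not part of the comparison. The labels give no age, dose, route or length of treatment. Each mouse gave 1 poly(A)-selected library of whole kidney tissue, in which fewer cells of a type and less RNA per cell cannot be told apart.

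The proximal tubule recovers nearly all filtered glucose. Sodium-coupled carriers of the Slc5a family take up sugar and lactate at the apical membrane, and facilitated carriers of the Slc2a family release sugar to the blood side. Its early part relies on SGLT2 (Slc5a2) with GLUT2 (Slc2a2), and its late part on SGLT1 (Slc5a1). Slc13a carriers move citrate, other dicarboxylates and sulfate with sodium, Slc16a carriers move lactate and amino acids without it, and Slc37a carriers bring glucose 6-phosphate into the endoplasmic reticulum, where the last step of glucose synthesis takes place.

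Library totals ran from 14692113 to 17036862 counts. Mitochondrial transcripts took 9.41% to 11.6% of the counts in AZD1152 libraries and 8.03% to 9.0% in vehicle libraries. Values are counts per 1000000 (CPM) scaled with TMM factors, and levels of different genes are compared only as CPM per kb of exon. These factors did not overlap between the groups, at 0.921 to 0.972 in AZD1152 libraries and 1.036 to 1.114 in vehicle libraries. The tissue carried the defining markers of the tubule, and the 5 markers of perirenal fat summed to 26.7 to 42.8 CPM in AZD1152 kidneys and 26.2 to 50.6 CPM in vehicle kidneys, nearly all of it Fabp4, which endothelial cells also express. The 5 muscle markers summed to 0.510 to 1.63 CPM in AZD1152 kidneys and 0.640 to 1.05 CPM in vehicle kidneys. The defining markers Adipoq and Lep of fat and Acta1 and Myh4 of muscle had 0 counts in all 7 libraries, where 3 counts, the limit that a count of 0 allows, are 0.212 CPM at most (counting error only).

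In the treated kidneys 6 of the 44 tested carriers rose and 1 fell by edgeR's quasi-likelihood test over 15774 genes, with a threshold of 0.05 on p-values adjusted by the Benjamini-Hochberg method, which 7.83% of all genes tested passed in either direction. The risers were Slc5a2 and Slc5a12 (sodium-coupled glucose and lactate uptake), Slc13a3 (dicarboxylates), Slc2a5 (fructose), Slc37a4 (glucose 6-phosphate) and Slc16a12 (creatine), at 1.45 to 1.75 times the vehicle level. Slc2a6, an intracellular sugar carrier known from leukocytes, fell to 0.434 times that level. The share that rose was 13.6%, against 3.02% of all genes tested, and the share that fell was 2.27%, against 4.81%. The median log2 fold change was 0.20 over the tested carriers and 0.00 over all genes tested, with 27 estimates above 0 and 17 below, where 49.9% of all genes tested had one above 0. The values of the 2 groups did not overlap for 12 carriers that were higher with AZD1152 and 6 that were lower, where 11.2% and 11.6% of all genes tested did so, or 22.8% in either direction. Passing the test refers to edgeR throughout, while DESeq2 also called Slc13a2, Slc16a10 and Slc16a13 higher and Slc16a3 and Slc37a2 lower. These calls depended on single libraries. The count of risers was 0 without AZD1152 replicate 4 or vehicle replicate 3, 1 without vehicle replicate 1 and 2 without AZD1152 replicate 2, and the 1 faller was lost without vehicle replicate 1 or 3. Scaling by library totals alone moved the median of all genes to -0.15 and that of the tested carriers to 0.046. There 6 carriers rose and 4 fell (Slc2a6, Slc16a3, Slc37a2 and Slc5a4a), while the share of higher calls over all genes was 13.5% in place of 38.5%.

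**Figure D1:**
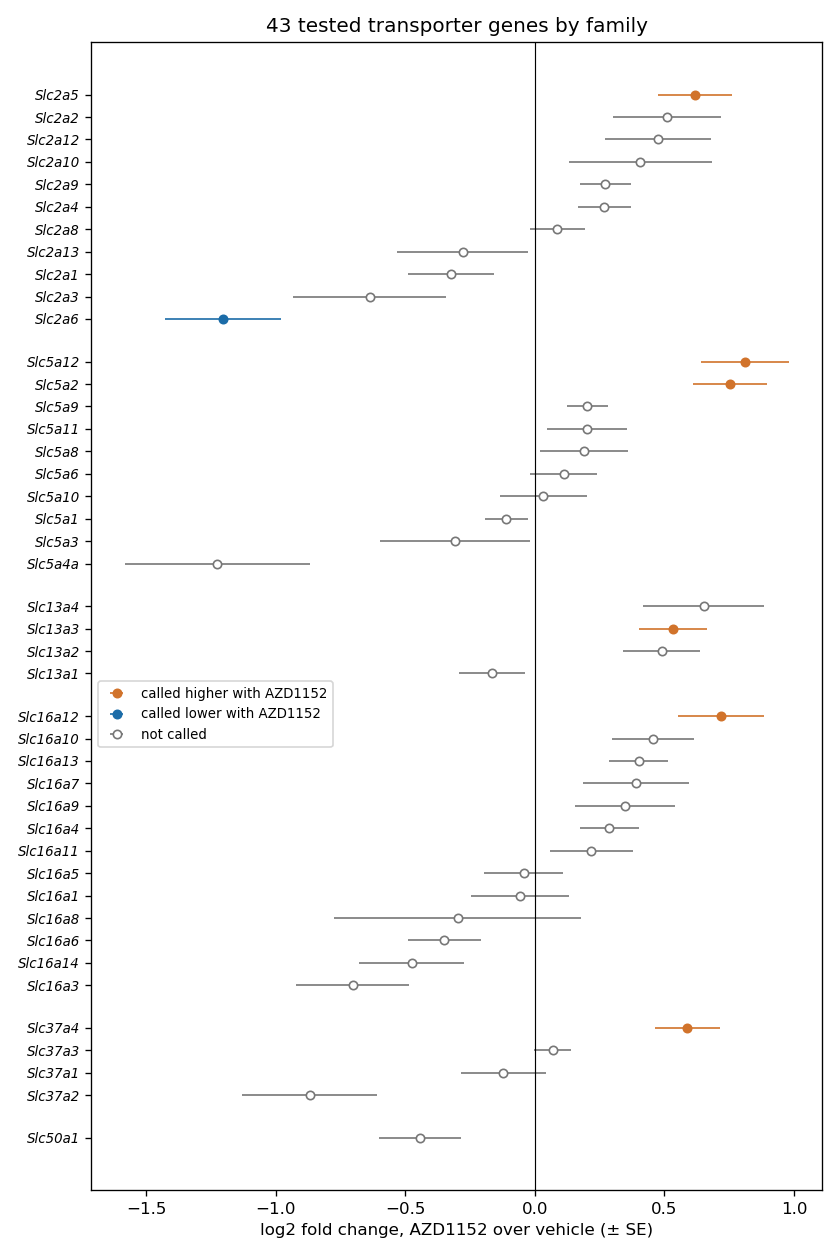
Log2 fold change of AZD1152 over vehicle (points, with standard errors as bars) for 43 tested carriers, grouped by family and sorted within it. Filled orange points mark the 6 genes that rose, the filled blue point marks Slc2a6, which fell, and open points mark the 36 others shown, which did not pass the test.

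Among the sodium-coupled sugar carriers SGLT2 rose and SGLT1 did not pass the test. Slc5a2 (ENSMUSG00000030781; GRCm38 chromosome 7, 128265657 to 128272430, plus strand) encodes SGLT2, the carrier for the bulk of filtered glucose. It had 410.2, 517, 476 and 457 CPM in AZD1152 kidneys and 274, 333 and 221 CPM in vehicle kidneys. All 4 treated libraries lay above all 3 vehicle libraries, of which replicate 3 was lowest. Its log2 fold change was 0.75 ± 0.14 (SE; edgeR adjusted p = 0.0207). It shares 597 exonic bases with BC017158 on the opposite strand, and reads of the 2 genes cannot be told apart where the strand setting is not stated. Slc5a1 (SGLT1) had 114, 115, 113 and 136 CPM in AZD1152 kidneys and 124, 129.8 and 132 CPM in vehicle kidneys. The groups overlapped through AZD1152 replicate 4, the highest of the 7, and the log2 fold change was -0.11 ± 0.08 (edgeR adjusted p = 0.455). The log2 CPM of Slc5a2 minus that of Slc5a1 was 1.84, 2.16, 2.08 and 1.75 in AZD1152 kidneys and 1.14, 1.36 and 0.74 in vehicle kidneys. This balance differed by 0.88 between the groups without overlap, but it holds Slc5a2 and is not separate from the call of that gene. An exact two-sided permutation test over the 35 splits of 7 libraries gave p = 0.0571, the smallest that 4 against 3 can give, and adjusted p = 0.2 over 7 such pairs.

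Other sugar carriers of the family did not pass. Slc5a9 (SGLT4) had 76.8, 86.6, 76.2 and 79.8 CPM in AZD1152 kidneys and 67.1, 75.8 and 65.1 CPM in vehicle kidneys. The treated libraries lay just above the vehicle ones, and the log2 fold change was 0.20 ± 0.08 (edgeR adjusted p = 0.152). Slc5a10, which encodes SGLT5, a renal carrier of fructose and mannose, had 105, 77.2, 76.7 and 103 CPM in AZD1152 kidneys and 75.9, 77.3 and 112 CPM in vehicle kidneys. Its highest library was vehicle replicate 3 and the groups overlapped, with an estimate of 0.03 ± 0.17 that turned negative when scaled by library totals (-0.12). It shares exonic bases with Fam83g. Slc5a4a, of the SGLT3 type, was near the limit of detection with 0.846, 0.398, 0.702 and 0.708 CPM in AZD1152 kidneys and 1.11, 1.37 and 2.22 CPM in vehicle kidneys. All treated libraries lay below the vehicle ones, at -1.23 ± 0.36 on the log2 scale (edgeR adjusted p = 0.07). Its neighbour Slc5a4b had 11 counts over all 7 libraries and was not tested.

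Of the lactate carriers in this family the early tubule form rose and the late form did not pass. Slc5a12 (ENSMUSG00000041644; GRCm38 chromosome 2, 110597298 to 110647779, plus strand) encodes SMCT2, the low-affinity sodium-coupled lactate carrier of the early proximal tubule. With 1185, 1478, 1153 and 1070.3 CPM in AZD1152 kidneys and 776, 789 and 523 CPM in vehicle kidneys it had the highest level per length of the 49 carriers in both groups. The groups did not overlap, vehicle replicate 3 being the lowest library, and the log2 fold change was 0.81 ± 0.17 (SE; edgeR adjusted p = 0.0264). Slc5a8, which encodes SMCT1, the high-affinity form of the late tubule, had 107, 108, 68.5 and 103 CPM in AZD1152 kidneys and 101, 77.2 and 76.2 CPM in vehicle kidneys. The groups overlapped, AZD1152 replicate 3 was the lowest of all, and the estimate was 0.19 ± 0.17 (edgeR adjusted p = 0.535). Slc5a12 minus Slc5a8 on the log2 scale was 3.46, 3.77, 4.07 and 3.37 in AZD1152 kidneys and 2.94, 3.35 and 2.78 in vehicle kidneys. The difference of 0.65 between the groups came without overlap (exact two-sided permutation p = 0.0571, adjusted p = 0.2 over 7 pairs). The groups nearly met, at 3.37 in AZD1152 replicate 4 and 3.35 in vehicle replicate 2. The pair holds Slc5a12, so it is not separate from the call of that gene. The Slc5a2 and Slc5a12 calls were both lost without AZD1152 replicate 4, vehicle replicate 1 or vehicle replicate 3 (edgeR adjusted p = 0.0515, 0.0662 and 0.0586 for Slc5a2, and 0.0515, 0.0611 and 0.0689 for Slc5a12).

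Carriers of inositol and vitamins in the family did not pass the test. Slc5a3, the inositol carrier SMIT1 that cells of the medulla use against high osmolality, had 236, 187, 123 and 221 CPM in AZD1152 kidneys and 317, 137 and 258 CPM in vehicle kidneys. Its ranges overlapped widely, at -0.31 ± 0.29, and part of its exons is shared with Mrps6. Slc5a11 (SMIT2), an apical inositol carrier, had 56.5, 79.4, 67.0 and 67.8 CPM in AZD1152 kidneys and 52.4, 73.9 and 50.002 CPM in vehicle kidneys. Slc5a6, the carrier of biotin and pantothenate, had 39.9, 35.2, 27.4 and 38.6 CPM in AZD1152 kidneys and 33.6, 33.9 and 30.5 CPM in vehicle kidneys. Both overlapped between the groups, with estimates of 0.20 ± 0.15 and 0.11 ± 0.13. The Slc5a6 estimate was below 0 under scaling by library totals (-0.04), and the gene shares exonic bases with Atraid. The iodide carrier Slc5a5 and the choline carrier Slc5a7 were not tested, with 10 counts and 1 count over all libraries.

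**Figure D2:**
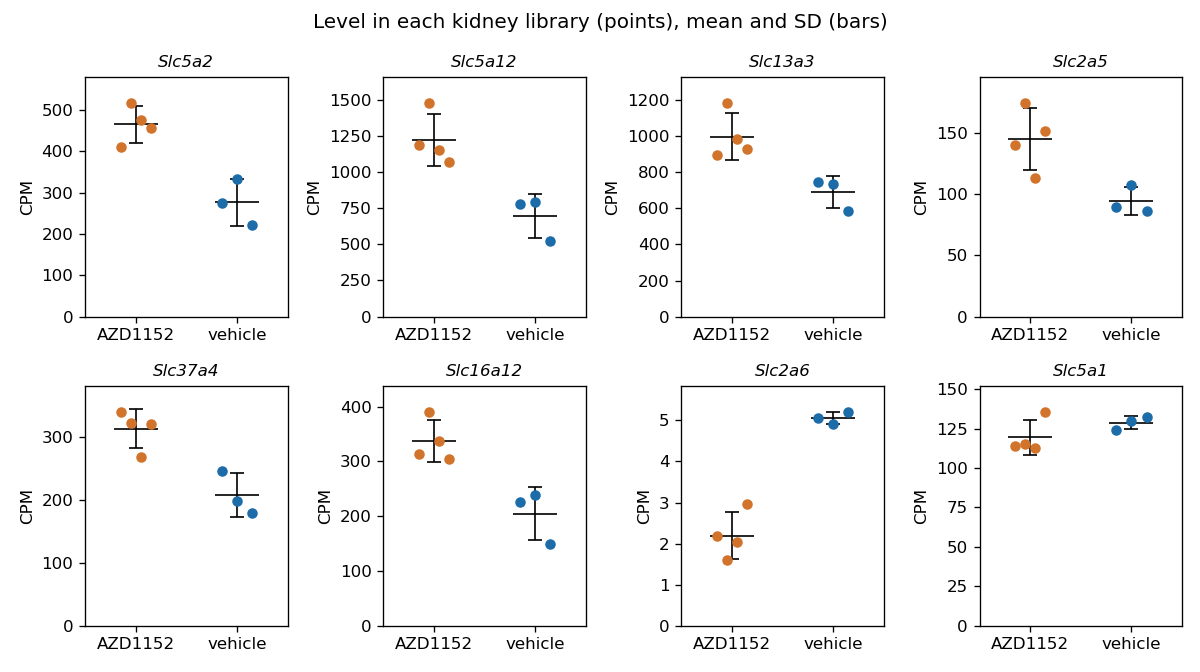
CPM in each library (points) with the mean and SD (bars) for the 7 carriers that passed the test and for Slc5a1, which did not. For the 6 risers every AZD1152 point (orange, left) lies above every vehicle point (blue, right), for Slc2a6 every one lies below, and for Slc5a1 the AZD1152 points span 113 to 136 CPM and enclose the vehicle points at 124 to 132 CPM.

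Of the facilitated carriers, the fructose carrier rose and a leukocyte carrier fell. Slc2a5 (ENSMUSG00000028976; GRCm38 chromosome 4, 150119283 to 150144169, plus strand) encodes GLUT5, the fructose carrier of the apical membrane. It had 140.2, 174, 113 and 151 CPM in AZD1152 kidneys and 89.4, 107 and 86.0 CPM in vehicle kidneys. The lowest treated library, replicate 3, was above the highest vehicle library, replicate 2, at a log2 fold change of 0.62 ± 0.14 (SE; edgeR adjusted p = 0.0366). Slc2a6 (ENSMUSG00000036067; GRCm38 chromosome 2, 27021363 to 27027998, minus strand) encodes GLUT6, a carrier of internal membranes. It had 2.18, 1.59, 2.04 and 2.97 CPM in AZD1152 kidneys and 5.06, 4.90 and 5.21 CPM in vehicle kidneys. The vehicle libraries lay close together, all above the treated ones, and the log2 fold change was -1.20 ± 0.22 (SE; edgeR adjusted p = 0.02). Slc2a5 was not called without AZD1152 replicate 1, 2 or 4 or vehicle replicate 1 or 3 (edgeR adjusted p = 0.0555 to 0.142), and Slc2a6 without vehicle replicate 1 or 3 (0.0592 and 0.0773).

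The promoters of both are shown because these genes moved in opposite directions, with matches to searched motifs in capitals. RefSeq promoters on GRCm38.p6, 250 bases before to 50 after a start, matched 38 of the 49 carriers, with 44 promoters. The motifs, on both strands, were the GC box GGGCGG, the TATA box TATAAA, the E-box CACGTG and the HNF4 sites CAAAGTCCA and CAAAGGTCA.
Slc2a5, chr4:150119094-150119393, plus strand: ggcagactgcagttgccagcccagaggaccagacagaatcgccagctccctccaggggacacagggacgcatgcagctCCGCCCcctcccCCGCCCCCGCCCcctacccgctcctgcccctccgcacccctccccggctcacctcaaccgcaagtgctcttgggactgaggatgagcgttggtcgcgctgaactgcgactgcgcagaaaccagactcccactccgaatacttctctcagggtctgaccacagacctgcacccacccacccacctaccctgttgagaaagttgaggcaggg
Slc2a6, chr2:27027949-27028248, minus strand: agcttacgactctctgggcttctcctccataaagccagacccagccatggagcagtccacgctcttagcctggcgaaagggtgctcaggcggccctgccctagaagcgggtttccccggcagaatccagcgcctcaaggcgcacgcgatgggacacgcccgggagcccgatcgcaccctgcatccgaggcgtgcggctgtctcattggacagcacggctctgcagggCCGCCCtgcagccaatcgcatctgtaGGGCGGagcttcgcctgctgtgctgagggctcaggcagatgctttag
Both hold GC boxes, with 3 in Slc2a5 upstream of the start, of which 2 abut, and 2 in Slc2a6 around the start. GC boxes stood in 24 of the 44 promoters and in 35.7% of all 32851 promoters of the table. Matches describe the letters of these windows and show no binding.

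GLUT2 and GLUT1 did not pass. Slc2a2 (GLUT2), the blood-side partner of SGLT2, had 219, 373, 294 and 263 CPM in AZD1152 kidneys and 222, 237 and 145 CPM in vehicle kidneys. AZD1152 replicate 1 lay within the vehicle range and vehicle replicate 3 was lowest, at 0.51 ± 0.21 (edgeR adjusted p = 0.169). Slc2a1 (GLUT1), the widely used glucose carrier, had 73.9, 43.5, 51.3 and 54.3 CPM in AZD1152 kidneys and 66.6, 62.6 and 80.0 CPM in vehicle kidneys. AZD1152 replicate 1 overlapped the vehicle libraries, at -0.32 ± 0.17 (edgeR adjusted p = 0.27). Slc2a2 minus Slc2a1 on the log2 scale differed by 0.86 between the groups (exact two-sided permutation p = 0.171, adjusted p = 0.3). Slc2a3 (GLUT3), known from neurons and leukocytes, had 2.60, 1.33, 2.74 and 2.55 CPM in AZD1152 kidneys and 2.79, 3.25 and 4.71 CPM in vehicle kidneys. It lay lower in every treated library, at -0.64 ± 0.30 (edgeR adjusted p = 0.222), and Slc2a1 minus Slc2a3 differed by 0.29 (exact permutation p = 0.343, adjusted p = 0.4).

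The remaining Slc2a genes did not pass the test in edgeR. Slc2a4 (GLUT4), the insulin-responsive carrier of muscle and fat, had 42.0, 34.2, 35.2 and 35.5 CPM in AZD1152 kidneys and 28.4, 33.7 and 29.3 CPM in vehicle kidneys. Slc2a9 (GLUT9), the urate carrier, had 27.8, 29.6, 24.4 and 25.8 CPM in AZD1152 kidneys and 20.9, 23.2 and 22.7 CPM in vehicle kidneys. In both the groups did not overlap, but at 0.27 ± 0.10 and 0.27 ± 0.10 neither passed (edgeR adjusted p = 0.145 and 0.128). Slc2a12 (GLUT12) had 20.2, 21.5, 22.6 and 19.9 CPM in AZD1152 kidneys and 12.0, 21.6 and 11.9 CPM in vehicle kidneys. Its vehicle replicate 2 stood with the treated libraries, and without that library the gene rose, by 0.82 on the log2 scale (edgeR adjusted p = 0.0205), in place of 0.48 ± 0.21 (adjusted p = 0.191). Slc2a8 (GLUT8), another carrier of internal membranes, had 22.5, 21.8, 23.7 and 24.8 CPM in AZD1152 kidneys and 19.1, 23.9 and 22.5 CPM in vehicle kidneys. The groups overlapped, and its estimate of 0.09 ± 0.11 was -0.06 when scaled by library totals. Slc2a13, a proton-coupled inositol carrier, and Slc2a10 had estimates of -0.28 ± 0.25 and 0.41 ± 0.28 below 10 CPM, and Slc2a7 had 12 counts and was not tested.

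Of the Slc13a genes, a dicarboxylate carrier of the blood side rose. Slc13a3 (ENSMUSG00000018459; GRCm38 chromosome 2, 165405028 to 165473230, minus strand) encodes NaDC3, which loads proximal cells with dicarboxylates that organic anion exchangers use as counter-ions. It had 896, 1186, 985 and 929.9 CPM in AZD1152 kidneys and 747, 737 and 586 CPM in vehicle kidneys. The groups did not overlap, with AZD1152 replicate 2 highest and vehicle replicate 3 lowest, at a log2 fold change of 0.53 ± 0.13 (SE; edgeR adjusted p = 0.0425). The call was lost without any 1 library other than AZD1152 replicate 1 (edgeR adjusted p = 0.0597 to 0.135). Slc13a2 (NaDC1), the apical carrier that recovers citrate and succinate, had 60.9, 41.5, 38.7 and 47.2 CPM in AZD1152 kidneys and 36.0, 31.9 and 32.8 CPM in vehicle kidneys. Every treated library was higher, but it missed the threshold at 0.49 ± 0.15 (edgeR adjusted p = 0.0788). It shares exonic bases with the antisense gene Slc13a2os. Slc13a3 minus Slc13a2 differed by 0.07 between the groups (exact permutation p = 0.8, adjusted p = 0.8).

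The promoter of Slc13a3 is shown with that of Slc37a4 because both genes rose. For Slc37a4 the table lists 3 starts, and the one shown was chosen because it holds a TATA box.
Slc13a3, chr2:165473148-165473447, minus strand: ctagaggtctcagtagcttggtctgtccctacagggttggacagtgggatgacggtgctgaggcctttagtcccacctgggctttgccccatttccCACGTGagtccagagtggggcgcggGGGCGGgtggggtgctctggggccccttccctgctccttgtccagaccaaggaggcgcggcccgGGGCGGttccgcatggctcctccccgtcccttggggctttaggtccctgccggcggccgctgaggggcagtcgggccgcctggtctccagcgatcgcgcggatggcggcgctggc
Slc37a4, chr9:44398104-44398403, plus strand: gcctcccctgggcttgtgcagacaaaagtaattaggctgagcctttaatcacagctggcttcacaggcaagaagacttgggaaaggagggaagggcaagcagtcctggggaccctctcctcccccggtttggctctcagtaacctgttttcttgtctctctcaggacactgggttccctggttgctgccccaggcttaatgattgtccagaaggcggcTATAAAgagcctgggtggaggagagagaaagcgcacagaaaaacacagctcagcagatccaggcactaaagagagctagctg
The Slc13a3 promoter holds 2 GC boxes and an E-box, and the Slc37a4 promoter shown holds a TATA box 32 bases before the start and no GC box. The other 2 Slc37a4 promoters hold 2 and 3 GC boxes, but their windows overlap and 2 of the boxes lie in both. GC boxes thus stood in promoters of both genes, as in that of Slc2a6, which fell, and in 35.7% of all promoters. E-boxes stood in 7.15% and TATA boxes in 13.6% of all promoters of the table. Neither HNF4 site was found in the windows of the 5 carriers that passed the test and had an entry, where they stood in 0.475% and 0.478% of all promoters.

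The sulfate carriers of the family did not pass. Slc13a1 (NaS1), which recovers filtered sulfate, had 638, 744, 838 and 706 CPM in AZD1152 kidneys and 874, 899.6 and 688 CPM in vehicle kidneys. The ranges overlapped, with vehicle replicates 1 and 2 highest, at -0.17 ± 0.13 (edgeR adjusted p = 0.473). It was the exception among the 5 carriers with the highest level per length in AZD1152 kidneys, as the other 4 rose. Slc13a4 (NaS2) had 5.56, 11.5, 8.48 and 8.21 CPM in AZD1152 kidneys and 5.35, 5.93 and 4.82 CPM in vehicle kidneys. AZD1152 replicate 1 lay within the vehicle range, and without it the gene rose, by 0.81 on the log2 scale (edgeR adjusted p = 0.0471), in place of 0.65 ± 0.23 (adjusted p = 0.124). The citrate carrier Slc13a5 had 20 counts over all libraries and was not tested.

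Slc37a4 (ENSMUSG00000032114; GRCm38 chromosome 9, 44396852 to 44402968, plus strand) rose. It encodes the glucose 6-phosphate carrier of the endoplasmic reticulum, which works with glucose-6-phosphatase. Its level was 339.7, 323, 268 and 321 CPM in AZD1152 kidneys and 246, 198 and 179 CPM in vehicle kidneys. The groups did not overlap, AZD1152 replicate 3 and vehicle replicate 1 lying nearest to each other, and the log2 fold change was 0.59 ± 0.13 (SE; edgeR adjusted p = 0.0288). The call was lost without AZD1152 replicate 1, 2 or 4 or vehicle replicate 2 or 3 (edgeR adjusted p = 0.0534 to 0.103). Slc37a2, a sugar phosphate carrier known from macrophages, had 3.87, 6.10, 9.44 and 6.44 CPM in AZD1152 kidneys and 12.6, 9.69 and 13.1 CPM in vehicle kidneys. It was lower in each treated library and missed the threshold at -0.87 ± 0.26 (edgeR adjusted p = 0.0758), and it passed without AZD1152 replicate 3 (-1.12, adjusted p = 0.0361). Slc37a3 had 68.8, 77.5, 78.3 and 76.5 CPM in AZD1152 kidneys and 73.0, 74.9 and 67.4 CPM in vehicle kidneys. Its groups overlapped, at 0.07 ± 0.07, or -0.08 when scaled by library totals. Slc37a1 lay between 6.32 and 10.1 CPM in all libraries, at -0.12 ± 0.16. Slc50a1, the SWEET-type sugar carrier, had 14.3, 11.5, 10.3 and 14.6 CPM in AZD1152 kidneys and 16.0, 15.3 and 20.3 CPM in vehicle kidneys. All treated libraries were below the vehicle ones, at -0.44 ± 0.16 (edgeR adjusted p = 0.123).

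Among the Slc16a carriers a creatine carrier rose, and the lactate carriers did not pass. Slc16a12 (ENSMUSG00000009378; GRCm38 chromosome 19, 34668403 to 34747289, minus strand) encodes a carrier of creatine. It had 314, 390.4, 338 and 305 CPM in AZD1152 kidneys and 227, 238 and 149 CPM in vehicle kidneys. All treated libraries were above all vehicle ones, and vehicle replicate 3 was the lowest. The log2 fold change was 0.72 ± 0.16 (SE; edgeR adjusted p = 0.0352), and the call was lost without AZD1152 replicate 2, 3 or 4 or vehicle replicate 1 or 3 (0.0633 to 0.0715).

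The proton-coupled lactate carriers are Slc16a1, Slc16a7, Slc16a3 and Slc16a8. Slc16a1 (MCT1) had 56.5, 39.5, 68.3 and 45.6 CPM in AZD1152 kidneys and 45.1, 65.8 and 52.9 CPM in vehicle kidneys. Slc16a7 (MCT2), the form with high affinity, had 289, 148, 169.6 and 205 CPM in AZD1152 kidneys and 147, 174 and 144 CPM in vehicle kidneys. Both overlapped, AZD1152 replicate 1 standing well above the rest for Slc16a7, with estimates of -0.06 ± 0.19 and 0.39 ± 0.21 (edgeR adjusted p = 0.888 and 0.281). Slc16a3 (MCT4), the lactate exporter of glycolytic cells and activated leukocytes, had 2.66, 2.92, 3.25 and 4.60 CPM in AZD1152 kidneys and 5.76, 4.85 and 5.77 CPM in vehicle kidneys. Every treated library was below every vehicle library, and the gene missed the threshold at -0.70 ± 0.22 (edgeR adjusted p = 0.084). Slc16a1 minus Slc16a3 differed by 0.64 on the log2 scale (exact two-sided permutation p = 0.171, adjusted p = 0.3) and Slc16a7 minus Slc16a1 by 0.42 (exact two-sided permutation p = 0.229, adjusted p = 0.32). Slc16a8 (MCT3), known from the retinal pigment epithelium, was at or below 1.03 CPM in all libraries, at -0.30 ± 0.48.

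Carriers of amino acids and carnitine in the family had positive estimates. Slc16a10 (TAT1), the carrier of aromatic amino acids, had 154, 167, 177 and 156 CPM in AZD1152 kidneys and 133, 140.2 and 84.7 CPM in vehicle kidneys. Its groups did not overlap, vehicle replicate 3 being the lowest library, at 0.46 ± 0.16 (edgeR adjusted p = 0.112). Slc16a9, linked to carnitine efflux, had 146, 88.8, 89.5 and 110.2 CPM in AZD1152 kidneys and 104, 70.4 and 82.0 CPM in vehicle kidneys. AZD1152 replicate 1 was far above its group, with an estimate of 0.35 ± 0.19, and the gene shares exonic bases with Gm7097.

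Carriers of this family with less defined substrates did not pass either. Slc16a4 had 147, 175, 136 and 149 CPM in AZD1152 kidneys and 137, 130.2 and 106 CPM in vehicle kidneys. Slc16a13 had 131, 97.2, 101 and 112 CPM in AZD1152 kidneys and 89.6, 74.5 and 86.7 CPM in vehicle kidneys. Its groups did not overlap, and it came nearest to the threshold of all carriers that missed it, at 0.40 ± 0.11 (edgeR adjusted p = 0.0657), while Slc16a4 overlapped at 0.29 ± 0.11. Slc16a11 had 34.7, 27.1, 23.9 and 28.9 CPM in AZD1152 kidneys and 25.8, 19.6 and 28.4 CPM in vehicle kidneys. Slc16a5 had 20.9, 16.0, 23.0 and 22.0 CPM in AZD1152 kidneys and 20.4, 18.1 and 24.7 CPM in vehicle kidneys. Both overlapped, at 0.22 ± 0.16 and -0.04 ± 0.15. Slc16a14 had 25.5, 21.4, 21.1 and 26.5 CPM in AZD1152 kidneys and 46.2, 26.9 and 25.5 CPM in vehicle kidneys. Slc16a6, which shares exons with Amz2, had 12.1, 11.4, 9.38 and 8.92 CPM in AZD1152 kidneys and 11.9, 13.6 and 14.5 CPM in vehicle kidneys. Estimates of these 2 were below 0, at -0.48 ± 0.20 and -0.35 ± 0.14 (edgeR adjusted p = 0.189 and 0.165), with vehicle replicate 1 far above the others for Slc16a14.

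Levels per length spanned from Slc5a12 at 301 ± 43.7 in AZD1152 kidneys and 171 ± 37.0 in vehicle kidneys CPM per kb (SD) down to genes under 1 CPM per kb. Next came Slc13a3 at 192 ± 24.9 in AZD1152 kidneys and 132 ± 17.2 in vehicle kidneys, and Slc5a2 at 161 ± 15.3 in AZD1152 kidneys and 95.3 ± 19.4 in vehicle kidneys. Slc37a4 followed at 109.5 ± 10.9 in AZD1152 kidneys and 72.8 ± 12.1 in vehicle kidneys, beside Slc13a1 at 94.7 ± 10.8 in AZD1152 kidneys and 106 ± 14.97 in vehicle kidneys. In vehicle kidneys Slc13a1 stood at rank 3, above Slc5a2 and Slc37a4, but the means of Slc13a1 and Slc5a2 there were within the SD of either. All 6 risers were among the 14 tested carriers with a mean of at least 100 CPM over the 7 libraries, where 11 estimates were above 0 and the median was 0.48. Of 20 carriers between 10 and 100 CPM edgeR called 0 and DESeq2 2 (14 estimates above 0, median 0.15). The unadjusted p of edgeR was under 0.05 for 9 of these 20, and for 3912 of all 15774 genes tested. Of the 10 below 10 CPM, Slc2a6 fell and 8 estimates were below 0, with a median of -0.47. The share of all genes called at each of these levels was not computed, so these counts have no background at like level. Vehicle replicate 3 was the lowest vehicle library for 21 of the 44 carriers and the highest for 14. For each of the 6 risers it was the lowest of all 7 libraries.

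**Figure D3:**
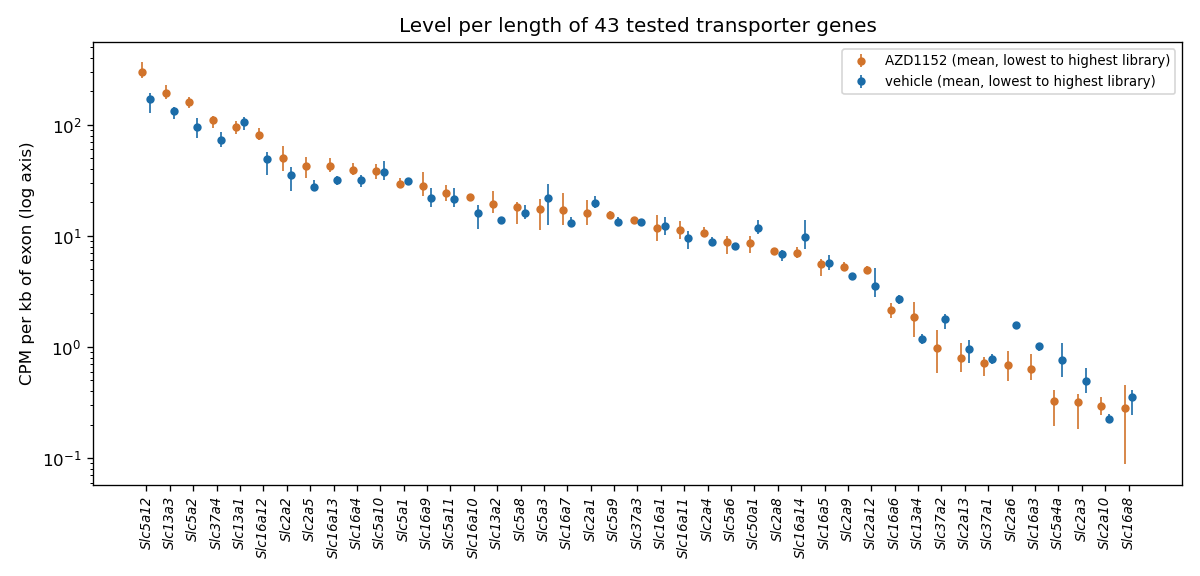
CPM per kb of exon on a log axis for 43 tested carriers, ordered by the mean of the AZD1152 libraries (orange) and shown beside vehicle (blue), with bars from the lowest to the highest library. The leading genes, except Slc13a1, lie higher with AZD1152, and Slc2a6, Slc37a2 and Slc16a3 at the low end lie lower.

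Proteins known to work with these carriers were described from a list of 13 genes, of which 2 rose. Of all genes tested 3.02% rose and 4.81% fell. This list and those that follow were chosen with earlier results of these data known. Pdzk1, a scaffold of apical carriers, had 563 ± 22.4 CPM in AZD1152 kidneys and 389 ± 78.6 CPM in vehicle kidneys (SD, n = 4 and n = 3), or 0.53 ± 0.13 on the log2 scale (edgeR adjusted p = 0.0455). Hnf4a, a transcription factor of proximal cells, had 1072 ± 35.5 CPM in AZD1152 kidneys and 802 ± 90.1 CPM in vehicle kidneys, at 0.42 ± 0.10 (edgeR adjusted p = 0.0387). Pdzk1 was not called without any 1 library other than vehicle replicate 2 (edgeR adjusted p at most 0.1003), nor Hnf4a without any 1 of the 7 (up to 0.101). The other 11 did not pass in edgeR, while DESeq2 called 4 of the 13 higher, Bsg and Pdzk1ip1 beside these 2. Pdzk1ip1 (MAP17), the subunit that activates SGLT2, was at 0.46 ± 0.15, and the chaperones of the monocarboxylate carriers, Bsg and Emb, were at 0.23 ± 0.08 and -0.05 ± 0.07. The transcription factors Hnf4g, Ppara and Hif1a were at 0.56 ± 0.26, 0.48 ± 0.20 and -0.05 ± 0.09, where Hif1a changed sign without vehicle replicate 1. Txnip and Arrdc4, arrestins that restrain glucose uptake, were at 0.30 ± 0.22 and -0.32 ± 0.12, and the kinase Sgk1 at -0.34 ± 0.25.

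Enzymes that handle the carried sugars and acids were counted in further lists, beside the 3.02% of all genes tested that rose and the 4.81% that fell. Of 7 genes of glucose synthesis and release 2 rose, with a median log2 fold change of 0.68 beside 0.00 over all genes. These were Pcx (pyruvate carboxylase, 0.69 ± 0.10) and Fbp1 (fructose bisphosphatase, 0.70 ± 0.13), with edgeR adjusted p = 0.0108 and 0.0179. G6pc, the glucose-6-phosphatase that Slc37a4 feeds, was at 0.68 ± 0.26 and Pck1 at 0.69 ± 0.20 (edgeR adjusted p = 0.143 and 0.0707). The Pcx and Fbp1 calls held without any 1 of the 7 libraries.

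Of 6 genes of fructose and polyol metabolism 3 rose and 1 fell, against 3.02% and 4.81% of all genes tested. Sord, which turns sorbitol into fructose, had 2164 ± 80.4 CPM in AZD1152 kidneys and 1186 ± 229.7 CPM in vehicle kidneys (SD, n = 4 and n = 3) and rose by 0.87 ± 0.14, and Tkfc, a kinase of fructose breakdown, rose by 0.46 ± 0.10. Akr1b3, the aldose reductase that makes sorbitol from glucose, had a log2 fold change of -0.45 ± 0.11 and fell. Their edgeR adjusted p were 0.0127, 0.0334 and 0.0418. The Sord call held without any 1 library. Of this list 1 gene rose without AZD1152 replicate 1, 2 or 4 or vehicle replicate 1 or 3, and 4 without vehicle replicate 2, while Akr1b3 was called only without AZD1152 replicate 1 or vehicle replicate 2.

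Lactate, pyruvate and citrate cycle genes were next, beside the 3.02% of all genes tested that rose and the 4.81% that fell. Of 12 genes of lactate and pyruvate use 4 rose and none fell, with a median of 0.23. These were Mpc2, of the mitochondrial pyruvate carrier (0.47 ± 0.07), Pdk2, a kinase that inhibits pyruvate dehydrogenase (0.49 ± 0.09), Pdha1, a subunit of that enzyme (0.37 ± 0.09), and Ldhb, the lactate dehydrogenase subunit typical of lactate-using tissue (0.40 ± 0.10), with edgeR adjusted p = 0.012, 0.0197, 0.0364 and 0.0418. Ldha was at 0.15 ± 0.08 (edgeR adjusted p = 0.313). The Mpc2 call held without any 1 library, while 1 gene of the list rose without AZD1152 replicate 4 or vehicle replicate 1 or 3, and 2 without AZD1152 replicate 1, 2 or 3.

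Against 3.02% of all genes tested that rose and 4.81% that fell, 6 of 21 citrate cycle and citrate-handling genes rose, with a median of 0.33. Among them were the dehydrogenase genes Idh2 (0.48 ± 0.09), Idh3g (0.38 ± 0.08), Idh3b (0.40 ± 0.09) and Ogdh (0.37 ± 0.09), with edgeR adjusted p = 0.0189, 0.0236, 0.0388 and 0.0477. DESeq2 called 15 of the 21. In edgeR 0 of the list rose without AZD1152 replicate 4 or vehicle replicate 1 or 3, 2 without AZD1152 replicate 1 or 2, and 3 without AZD1152 replicate 3. With all 7 libraries the unadjusted p was under 0.05 for 17 of the 21, and for 3912 of all 15774 genes tested. The glycolysis list was split, with 2 of 24 genes higher (among them Pgam2, 0.64 ± 0.16) and 2 lower (the hexokinases Hk2, -1.53 ± 0.24, and Hk3, -1.20 ± 0.27), and a median of 0.14. The edgeR adjusted p of Pgam2, Hk2 and Hk3 were 0.0421, 0.0123 and 0.0348. The Hk2 call held without any 1 library, that of Hk3 was lost without AZD1152 replicate 1 or 3 or any 1 vehicle library (highest adjusted p 0.0885), and Pgam2 was not called without any 1 library other than vehicle replicate 2.

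Small lists of inositol and ketone handling completed the survey, beside the 3.02% of all genes tested that rose and the 4.81% that fell. Of 8 genes of inositol and osmolyte handling Miox, the renal enzyme that breaks down inositol, rose by 0.69 ± 0.17 (edgeR adjusted p = 0.0403) and Akr1b3 fell, with a median of -0.03. Nfat5, the factor that drives osmolyte carriers such as Slc5a3, was at -0.27 ± 0.11 (edgeR adjusted p = 0.174). Of 4 ketone genes Acat1 rose by 0.49 ± 0.10 (edgeR adjusted p = 0.0263), and the list had a median of 0.43. Miox was not called without any 1 of the 7 libraries (highest edgeR adjusted p 0.0982), nor Acat1 without AZD1152 replicate 2 or 4 or vehicle replicate 1 or 3 (up to 0.0802).

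**Figure D4:**
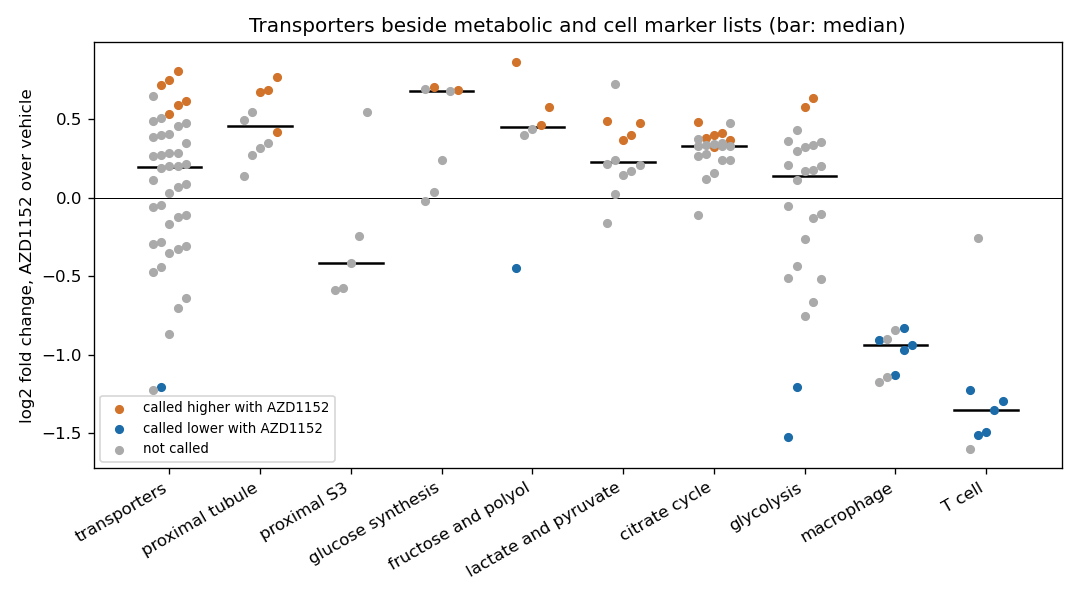
Log2 fold change of AZD1152 over vehicle for each tested gene of the carrier families and of 9 lists, with the median as a bar. Genes that rose are orange, genes that fell are blue and the rest grey. The carriers spread on both sides of 0, glucose synthesis and fructose genes lie mostly above it, and macrophage and T cell markers lie below.

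Markers of cell types moved beside the carriers, and their part in these results was not tested. Where 3.02% of all genes tested rose and 4.81% fell, 4 of 10 proximal tubule markers rose and none fell (median log2 fold change 0.46). Their summed level was 16692 to 20004 CPM in AZD1152 kidneys and 11099 to 13800.0 CPM in vehicle kidneys, and that of the 49 carriers was 6416 to 7336 CPM in AZD1152 kidneys and 4501 to 5556 CPM in vehicle kidneys. Neither pair of ranges overlapped, but each sum holds the genes that rose, so it is not separate from their calls. The 4 risers were Ass1 (0.77 ± 0.16), Miox, Slc34a1 (0.67 ± 0.15) and Hnf4a (edgeR adjusted p = 0.0242, 0.0403, 0.033 and 0.0387), while Lrp2, the endocytic receptor megalin, was at 0.14 ± 0.13 (adjusted p = 0.547). Without 1 library the markers that rose numbered 0 (AZD1152 replicate 4 or vehicle replicate 1), 1 (AZD1152 replicate 2 or 3 or vehicle replicate 3) or 2 (AZD1152 replicate 1 or vehicle replicate 2). Of 5 markers of the late (S3) proximal tubule 0 passed in edgeR or DESeq2, and 4 estimates were below 0. An unadjusted p under 0.05 was found for 1 of the 5 markers, and for 3912 of all 15774 genes tested. Their sum was 978 to 1693 CPM in AZD1152 kidneys and 1494 to 1967 CPM in vehicle kidneys, with overlapping ranges.

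Of the carriers, Slc2a6 fell, while Slc37a2 and Slc16a3 did not pass in edgeR. Over all genes tested 3.02% rose and 4.81% fell. Of 9 macrophage markers 5 fell (median -0.94), with sums of 424 to 651 CPM in AZD1152 kidneys and 894 to 1242 CPM in vehicle kidneys. Of 7 T cell markers 5 fell (median -1.35), with sums of 44.4 to 64.5 CPM in AZD1152 kidneys and 83.9 to 131 CPM in vehicle kidneys. Of 7 markers of tubular injury 6 fell (median -1.50), with sums of 1485 to 2499.6 CPM in AZD1152 kidneys and 3010.0 to 4180.4 CPM in vehicle kidneys. Most of the injury sum was Spp1, with a mean of 1823 of 1956 CPM in AZD1152 kidneys and 3281 of 3645 CPM in vehicle kidneys. Leaving out vehicle replicate 3 brought these counts to 0 macrophage, 0 T cell and 2 injury markers, and leaving out vehicle replicate 1 to 1, 3 and 2. With AZD1152 replicate 4 left out 2 T cell and 2 injury markers fell, and with vehicle replicate 2 left out 2 T cell markers did. Only 3 macrophage markers fell when AZD1152 replicate 1 was left out, and only 3 injury markers when replicate 2 was. Beside Slc5a3, 0 of 5 loop of Henle markers passed in edgeR or DESeq2, with 1 at an unadjusted p under 0.05 and sums of 2757 to 5168 CPM in AZD1152 kidneys and 3838 to 5383 CPM in vehicle kidneys. Of 9 distal tubule and collecting duct markers 4 rose, with sums of 1694 to 2231 CPM in AZD1152 kidneys and 1489.8 to 1969 CPM in vehicle kidneys, and these were 0 without AZD1152 replicate 4 or vehicle replicate 1 or 3 and 1 without AZD1152 replicate 1, 2 or 3. No defining marker of these 5 lists was at 0. In edgeR 0 of the tested podocyte (4), endothelial (5), B and plasma cell (6), neutrophil (4) and erythroid (4) markers passed, and DESeq2 called 0, 0, 1, 1 and 0 of them. Their unadjusted p in edgeR was under 0.05 for 0, 0, 2, 2 and 0, where 3912 of all 15774 genes tested had such a p.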

How the data were processed

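Poly(A)-selected kidney RNA of 7 mice was made into TruSeq libraries and sequenced, per the labels' protocols. The submitters' processing notes name CASAVA, HISAT2 2.0.5, DESeq, DESeq2 and the build GRCm38, while the read counter, strand setting and gene annotation are not given in the sources used here. The authors deposited raw read counts per Ensembl gene, without normalization. Sample titles gave the groups, and each library is from a separate mouse, per the series text. Of 53465 table genes 53274 had a name in GENCODE mouse release 21.

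The test was the quasi-likelihood test of edgeR 4.0.16 under R 4.3.3, on group alone after filterByExpr and TMM scaling, two-sided, with Benjamini-Hochberg adjustment over 15774 genes and a threshold of 0.05. Each standard error is the size of the estimate over the root of its F statistic. Differences between carriers in 1 library are of log2 CPM with a prior count of 2. Of the 49 carriers 44 passed the filter, 42 of them with at least 0.611 CPM in all 7 libraries and 0 through 1 group alone. The 5 others had at most 0.342 CPM. Exonic bases were shared with another gene by 14 carriers. No 2 libraries agreed within sampling noise (over the 21 pairs, chi-square was at least 9.97 times its degrees of freedom). The steps were also run on counts simulated with the same spread for all genes and with larger changes than those of the risers. That run does not cover changes of the risers' size.

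The carriers and lists were chosen with earlier results of these data known. Values per library are given for each carrier that passed the test, for those with a mean of at least 10 CPM in a group and for the 6 carriers with the smallest p among those that did not pass. From each list of enzymes up to 4 called genes are named, by p, and the partner proteins. Some genes of the families and lists are counted but not reported here by name. Genes named beside these were chosen after their values were seen. Alternatives tried were factors by RLE and by upper quartile, library totals alone, TMM without mitochondrial, immunoglobulin and the 50 most abundant genes, no filter and a stricter filter on low counts, DESeq2 1.42.0, the replicate number as a block, and each library left out in turn.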

Additional observations from a re-analysis of the deposited data

Results flagged for a closer look

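In the 4 AZD1152 libraries 1 value stood far from the other 3 for 5 of the 44 tested carriers, where chance flags about 1 in 20 groups. Slc5a8 had 68.5 CPM in AZD1152 replicate 3, against 103 to 108 CPM in the other treated libraries. Slc37a1 had 6.32 CPM in the same library, against 8.82 to 9.37 CPM. Slc2a3 had 1.33 CPM in AZD1152 replicate 2, against 2.55 to 2.74 CPM. Slc5a1 was high in AZD1152 replicate 4, at 136 CPM beside 113 to 115 CPM. Slc2a4 had 42 CPM in AZD1152 replicate 1, against 34.2 to 35.5 CPM. None of these 5 genes passed the test between the groups in edgeR, where Slc2a4 had an unadjusted p under 0.05, or in DESeq2.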

How the results depend on the processing

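The 7 called carriers kept their direction under all 15 alternatives, while their calls did not always hold. The carriers that rose numbered 6, and 0 to 5 with 1 library left out. The carriers that fell numbered 1, and 0 to 2 with 1 library left out. Over all genes the counts of 476 higher and 759 lower became 60 to 475 and 163 to 619 with 1 library left out. Library totals alone gave 232 and 1482 genes, with 4 carriers lower. In the lists this scaling gave 2 citrate cycle genes higher and 1 lower, and 2 lactate and pyruvate genes higher. It also gave 0 partner genes higher and 1 lower, but 9 macrophage markers lower. DESeq2 gave 954 and 1138 genes, with 9 carriers higher and 3 lower, and no filter on low counts gave 8 and 2 carriers. DESeq2 also called more genes in some lists than edgeR, with 15 in place of 6 citrate cycle genes, 4 in place of 2 genes of glucose synthesis, 5 in place of 3 fructose genes, 6 in place of 2 glycolysis genes higher and 4 in place of 2 lower, 2 in place of 1 ketone gene, 4 in place of 2 partner genes and 9 in place of 5 macrophage markers lower. The replicate number as a block gave 63 and 146 genes, with 1 carrier higher (Slc5a12) and 0 lower. With this block 0 citrate cycle, lactate and pyruvate, partner, proximal tubule, distal tubule or T cell genes were called. It gave 1 gene of glucose synthesis and 1 of fructose metabolism higher, and 3 macrophage and 4 injury markers lower. Same-numbered libraries deviated with correlations of -0.29, 0.21 and -0.12, and differently numbered ones with -0.23 to 0.30. So few values cannot decide whether the numbers pair the mice. AZD1152 replicate 4 has no vehicle library of the same number. Estimates near 0 changed sign. Library totals gave -0.064 for Slc2a8, -0.081 for Slc37a3, -0.12 for Slc5a10 and -0.038 for Slc5a6, and the block gave -0.027 for Slc5a10. With 1 library left out, log2 fold changes ran from -0.22 to 0.10 for Slc16a1, -0.14 to 0.087 for Slc16a5, -0.063 to 0.24 for Slc5a10 and -0.11 to 0.018 for Hif1a. The cause of these shifts was not tested, and leave-outs also fit fewer libraries. RLE, upper-quartile and reduced TMM factors and the stricter filter called the same 7 carriers.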

Other observations

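On chromosome 11 the carriers Slc2a4 (69942539 to 69948188), Slc16a11 (70212752 to 70216417), Slc16a13 (70216789 to 70221064) and Slc13a5 (72241989 to 72267222) lie on 1 stretch of GRCm38. Slc16a11 and Slc16a13 are next to each other on opposite strands. Their log2 fold changes of AZD1152 over vehicle were 0.22 ± 0.16 and 0.40 ± 0.11 (SE), and that of Slc2a4 was 0.27 ± 0.10. None of the 3 passed edgeR's test over all genes (adjusted p = 0.448, 0.0657 and 0.145), and DESeq2 called Slc16a13. Elsewhere on chromosome 11, Slc5a10, Slc13a2, Slc16a6, Slc16a5 and Slc16a3 had log2 fold changes of 0.03, 0.49, -0.35, -0.04 and -0.70.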
